A study of Mus musculus with 6 samples.

Results

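Oxidative phosphorylation genes were taken as all genes on the array whose symbol begins with Nduf, Uqcr, Cox4, Cox5, Cox6, Cox7, Cox8 or Atp5, together with Sdha, Sdhb, Sdhc and Sdhd. The rule used names only and found 90 of the 18194 genes with a probe set of their own. Sorted by name, it gave 36 genes of complex I, 8 complex I assembly factors, 4 of complex II, 8 of complex III, 17 of complex IV and 17 of ATP synthase. Each gene was represented by its brightest probe set over 6 arrays, and 87 of the 90 were bright enough to be tested among 13645 genes. The 3 below the filter were Cox7a1, Cox7b2 and Ndufb4, and 2 more Ndufb4 probe sets were left out because they are also listed with Ndufb4b and Ndufb4c. Cox7b and the genes of the mitochondrial genome were not analysed here.

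Regulatory T (Treg) cells, CD4 T cells that restrain immune responses, were sorted from C57BL/6 mice and their total RNA was measured on 6 Affymetrix arrays. The groups were Foxo1KO/Foxo1AAA (Foxo1 knockout mice that carry a constitutively active form of Foxo1, 1 array), Foxo1AAA (mice that carry that form with no knockout named, 1 array), Foxo1KO (Foxo1 knockout, 2 arrays) and WT (wild type, 2 arrays). The sources used here do not give the deleted part of Foxo1, the promoter behind the deletion or the active form, the ages of the mice, or how many mice an array stands for. The design asks which transcripts depend on Foxo1, a forkhead transcription factor that Akt keeps out of the nucleus, and whether the active form restores them in the knockout. Because nothing says that replicates came from separate mice, p-values measure only the spread between these arrays.

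The respiratory chain sits in the inner mitochondrial membrane. Complexes I and II pass electrons from NADH and succinate to ubiquinone, complex III passes them on to cytochrome c, and complex IV passes them to oxygen. Complexes I, III and IV pump protons, and ATP synthase uses the proton gradient to make ATP. Treg cells are known to rely more on respiration, and proliferating effector T cells more on glycolysis. NRF1, GABP, YY1 and the PGC-1 coactivators are known activators of nuclear respiratory genes, and Foxo factors have been tied to mitochondrial gene expression in other tissues.

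Foxo1 itself measured 9.66 on the Foxo1KO/Foxo1AAA array, 10.71 on the Foxo1AAA array, 10.87 and 10.65 on the Foxo1KO arrays, and 11.03 and 11.35 on the WT arrays, all in log2 units. The Foxo1KO minus WT difference was -0.43 (limma adjusted p = 0.045), a call that was lost without either Foxo1KO array or without WT replicate 2, and a probe set outside the deleted part would not show the deletion. The Foxp3 probe set was dim on every array, between 5.10 and 5.58, while 8 Treg and CD4 T cell markers averaged 11.15 to 11.25 on all 6 arrays. The 2 arrays with Foxo1AAA stood apart: across all probe sets their mutual correlation was 0.994, while against the remaining 4 arrays it lay between 0.971 and 0.980. On them 13 myeloid and dendritic cell markers averaged 8.98 (Foxo1KO/Foxo1AAA) and 8.83 (Foxo1AAA), against 7.67 and 7.03 in Foxo1KO and 6.54 and 6.77 in WT. Xist, transcribed from the inactive X chromosome, measured 6.27 and 6.04 on the arrays with Foxo1AAA and 12.03 to 13.43 on the other 4. The Y-linked Eif2s3y measured 10.56 and 10.59 on the arrays with Foxo1AAA, 4.05 and 9.91 on Foxo1KO replicates 1 and 2, and 3.91 and 10.09 on WT replicates 1 and 2, so the replicate number carries the same Eif2s3y difference in both groups. The active form, the sex of the mice and the set of arrays therefore cannot be told apart in comparisons that use these 2 arrays.

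Loss of Foxo1 left nearly all transcripts of the respiratory chain and ATP synthase within a small range of WT. Between Foxo1KO and WT, 4 of the 87 tested genes rose (Cox5a, Ndufaf3, Cox7a2 and Sdhb) and 2 fell (Cox7c and Ndufaf4), by 1.25-fold to 1.32-fold. Among all 13645 genes, 11.2% were called higher, 10.7% lower and 21.8% in either direction, at a limma adjusted p under 0.05. The median difference was log2 0.04 for the oxidative phosphorylation genes and 0.03 for all genes, and the 87 genes spanned -0.40 to 0.38. At an unadjusted p under 0.05, 13 of the 87 differed, against 4532 of all 13645 genes. Of 792 tested genes with a mean signal at or above the oxidative phosphorylation genes' median of 11.64, 108 rose and 88 fell (24.7% called). Differences of very bright probe sets can be understated on arrays, and 30 of the 87 had a mean of 12 or more; the part of this in the count was not tested. With the replicate number as a block, which here also carries the Eif2s3y difference, 0 of the 87 genes rose and 1, Cox7c, fell, against 9.34% and 8.67% of all genes. In these bulk samples a change in transcripts per cell and a change in the share of cells of a type cannot be told apart.

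**Figure D1:**
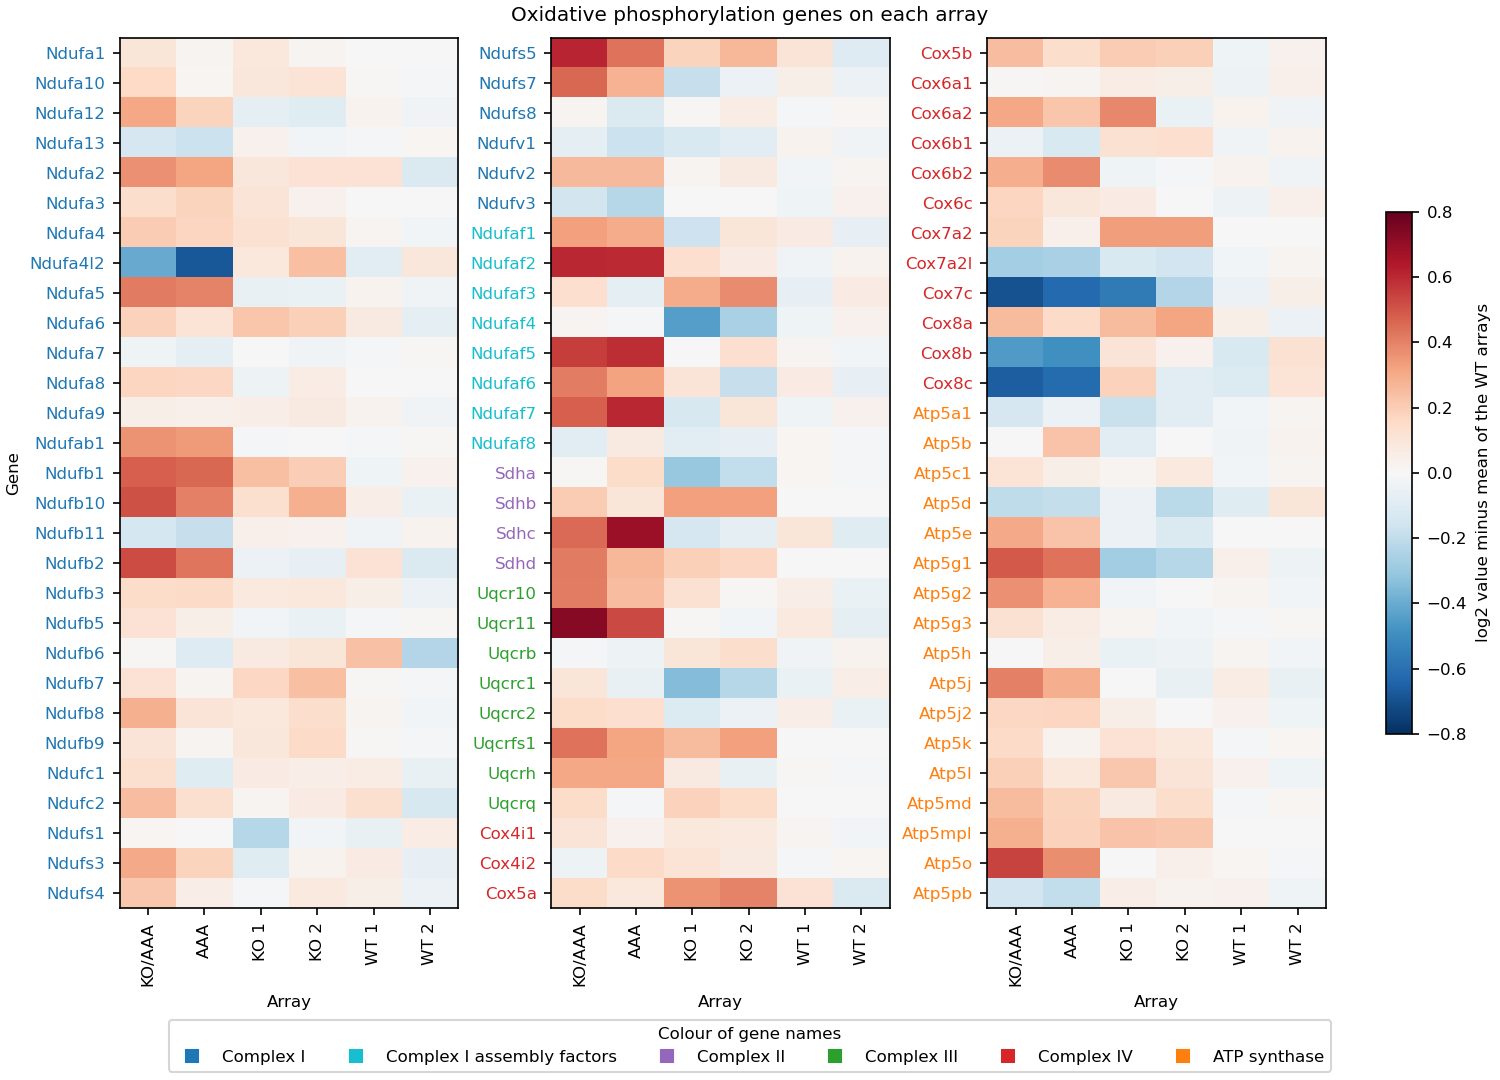
Each row is 1 of the 87 tested oxidative phosphorylation genes and each column 1 array, coloured by the log2 value minus the mean of the 2 WT arrays; gene names are coloured by complex. The Foxo1KO columns stay pale apart from a few genes such as Cox5a, Cox7a2, Cox7c and Ndufaf4, and the Foxo1KO/Foxo1AAA and Foxo1AAA columns share their strongest colours, with Uqcr11 up and Cox8c down.

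The 95% confidence intervals show what the 6 arrays could resolve. For 79 of the 87 genes the interval of the Foxo1KO minus WT difference lay wholly within 0.5 log2 units, or 1.41-fold, of 0. The intervals of Ndufaf3, Ndufaf4, Sdhb, Uqcrc1, Uqcrfs1, Cox5a, Cox7a2 and Cox7c reached past that size. The median standard error was 0.09. Replicates of these genes lay close together, with a median absolute difference of 0.05 between the Foxo1KO arrays and 0.06 between the WT arrays, against 0.11 and 0.10 over all genes.

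**Figure D2:**
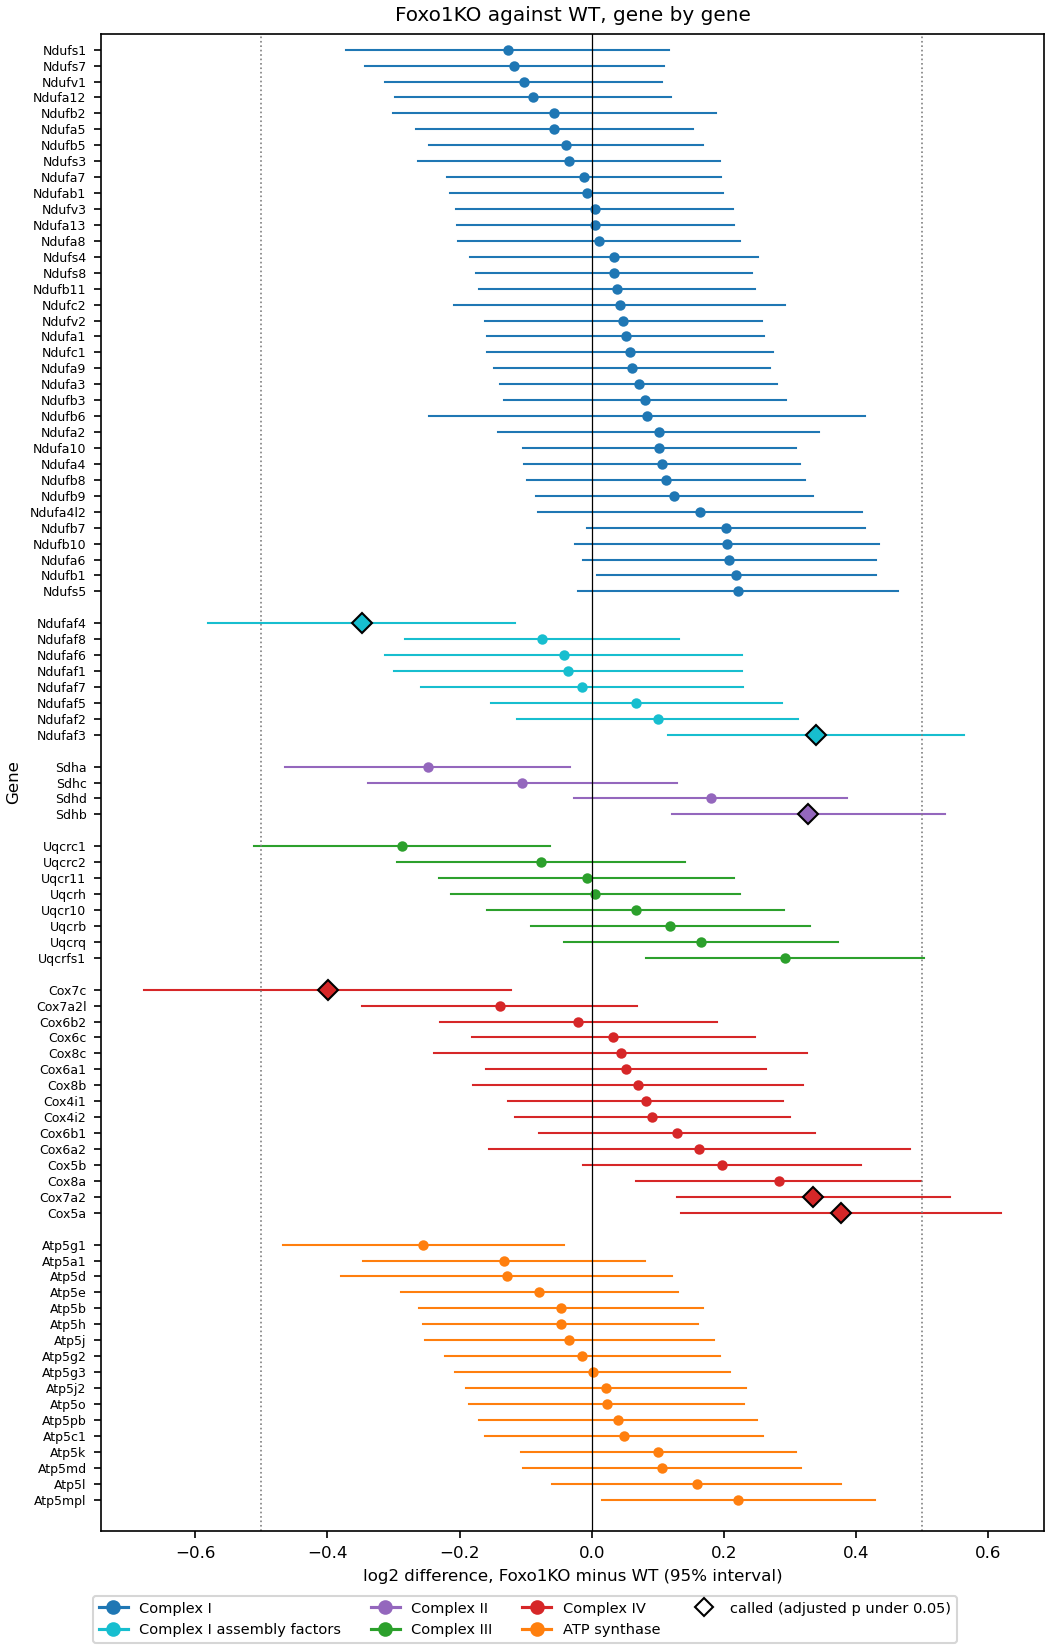
Points give the log2 difference between Foxo1KO and WT for each of the 87 genes and lines its 95% confidence interval, grouped and coloured by complex; diamonds mark the 6 called genes and dotted lines 0.5 log2 units either way. No gene sorted by name to complex I and no ATP synthase gene was called, and 79 intervals stay between the dotted lines.

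Complex I was the flattest large group. None of its 35 tested genes, sorted by name and including Ndufa4 and Ndufa4l2, was called in Foxo1KO (limma, 1 at an unadjusted p under 0.05). Their differences ran from -0.13 to 0.22. Ndufv1, the subunit that binds NADH and FMN, measured 11.33 and 11.37 in Foxo1KO and 11.48 and 11.43 in WT. Its difference was -0.10 (95% interval -0.31 to 0.11, adjusted p = 0.49). Ndufs1, which carries iron-sulphur clusters of the electron path, measured 10.12 and 10.32 in Foxo1KO and 10.29 and 10.41 in WT, so the groups overlapped. Its difference was -0.13 (-0.37 to 0.12, adjusted p = 0.47).

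The complex I assembly factors are not part of the finished enzyme. Ndufaf3 and Ndufaf4, partners that help join an early part of the complex, moved in opposite directions. Ndufaf3 measured 9.03 and 9.11 in Foxo1KO and 8.66 and 8.80 in WT. Ndufaf4 measured 9.41 and 9.59 in Foxo1KO and 9.82 and 9.89 in WT. Neither gene's groups overlapped, which carries no separate weight because the test on these arrays picked both genes. Ndufaf3 rose by 0.34 (SE 0.10, adjusted p = 0.039) and Ndufaf4 fell by 0.35 (SE 0.10, adjusted p = 0.040). The other 6 assembly factors were not called and differed by -0.08 to 0.10. A second probe set of Ndufaf4 differed by -0.48. The Ndufaf3 call was lost without any 1 of the 4 Foxo1KO and WT arrays (adjusted p 0.054 to 0.21). Ndufaf4 was no longer called without Foxo1KO replicate 1 (0.21; difference -0.26), WT replicate 1 (0.080) or WT replicate 2 (0.16).

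In complex II, Sdhb, the iron-sulphur subunit, measured 11.98 on both Foxo1KO arrays and 11.66 and 11.65 on the WT arrays. The rise was 0.33 (SE 0.09, limma adjusted p = 0.032). The groups did not overlap, which carries no separate weight because the test on these arrays picked the gene. Sdha, the flavoprotein subunit that oxidises succinate, lay the other way, at 11.30 and 11.40 in Foxo1KO and 11.62 and 11.58 in WT. Its difference of -0.25 did not pass the test (adjusted p = 0.10). Among the membrane anchors, Sdhc differed by -0.10 and Sdhd by 0.18, and neither was called. The Sdhb call was lost without any 1 of the 4 arrays (adjusted p 0.11 to 0.12), although its difference stayed at 0.33 each time.

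None of the 8 tested complex III genes was called (limma; 2 at an unadjusted p under 0.05). Those 2 were Uqcrfs1, the Rieske iron-sulphur protein, and Uqcrc1, a core subunit. Uqcrfs1 measured 11.63 and 11.70 in Foxo1KO and 11.38 and 11.37 in WT, a difference of 0.29 (adjusted p = 0.054). Uqcrc1 measured 10.53 and 10.65 in Foxo1KO and 10.82 and 10.93 in WT, a difference of -0.29 (adjusted p = 0.072). For both, the Foxo1KO and WT values did not overlap, but both were picked by their unadjusted p on these arrays. Their directions were opposite.

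Complex IV held 3 of the 6 calls. Cox5a, a nuclear-encoded subunit, measured 13.38 and 13.42 in Foxo1KO and 13.14 and 12.91 in WT. Cox7a2, the widely expressed form of subunit VIIa, measured 13.00 and 12.99 in Foxo1KO and 12.66 on both WT arrays. Cox7c, another small subunit, measured 8.08 and 8.41 in Foxo1KO and 8.60 and 8.69 in WT. The groups did not overlap for any of the 3 genes, which carries no separate weight because the test on these arrays picked them. Cox5a rose by 0.38 (SE 0.11, adjusted p = 0.035), Cox7a2 rose by 0.34 (SE 0.09, adjusted p = 0.029) and Cox7c fell by 0.40 (SE 0.12, adjusted p = 0.048). The second probe set of Cox7a2 differed by 0.40 and that of Cox7c by -0.48. The Cox7c probe sets averaged 8.29 and 6.41 over the arrays, against 13.18 for Cox4i1 and 12.78 for Cox6c. Whether they report the main Cox7c transcript was not tested. Cox8a, the ubiquitous subunit VIII, differed by 0.28 and was not called (adjusted p = 0.067), and Cox4i1, the common subunit IV, differed by 0.08. Without any 1 of the 4 arrays the Cox7a2 call was lost (adjusted p 0.10 to 0.11). Cox5a was no longer called without Foxo1KO replicate 1 (0.11), Foxo1KO replicate 2 (0.14) or WT replicate 2 (0.22; difference 0.26). Cox7c was no longer called without Foxo1KO replicate 1 (0.26; difference -0.24), WT replicate 1 (0.066) or WT replicate 2 (0.15).

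ATP synthase gave no call among 17 genes (limma; 2 at an unadjusted p under 0.05). Atp5b, the catalytic beta subunit, differed by -0.05 (95% interval -0.26 to 0.17), and Atp5a1, the alpha subunit, by -0.13 (-0.35 to 0.08). Atp5g1, Atp5g2 and Atp5g3 encode the same mature subunit of the proton-driven c-ring. Atp5g2 differed by -0.01 and Atp5g3 by 0.00, while Atp5g1 measured 10.42 and 10.47 in Foxo1KO and 10.74 and 10.66 in WT, a difference of -0.25 that was not called (adjusted p = 0.090).

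**Figure D3:**
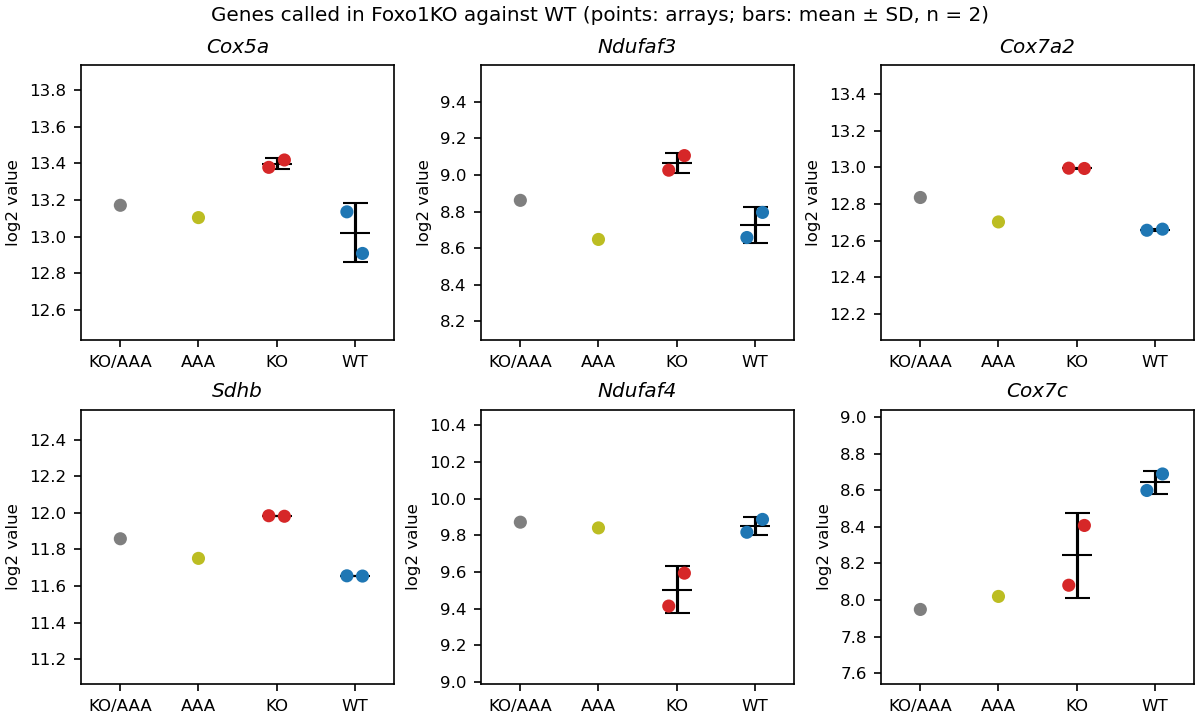
The 6 oxidative phosphorylation genes called between Foxo1KO and WT, with 1 point per array on the log2 scale and the mean ± SD of the 2 arrays for Foxo1KO and WT; each panel spans the same 1.5 log2 units. The Foxo1KO points of Cox5a, Ndufaf3, Cox7a2 and Sdhb lie above both WT points, and those of Ndufaf4 and Cox7c lie below both.

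Tissue-restricted partners of the common subunits gave no call in Foxo1KO. Cox4i2, a form of subunit IV found mainly in lung, differed by 0.09, Cox6a2, the heart and muscle form of subunit VIa, by 0.16, and Cox6b2, the testis form of VIb, by -0.02. Cox8b, the heart and muscle form of subunit VIII, differed by 0.07 and Cox8c, known from testis, by 0.04. Ndufa4l2, a hypoxia-induced relative of Ndufa4, differed by 0.16 and Ndufa4, now counted as a complex IV subunit, by 0.11. Cox7a2l differed by -0.14. The heart and muscle form Cox7a1 (4.49 to 4.94) and the testis form Cox7b2 (4.18 to 4.36) lay below the dimmest tested mean of 5.47 on all 6 arrays.

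Promoter sequence is shown for 4 genes the comparisons turn on: Cox5a, Cox7a2 and Ndufaf4 from the knockout comparison, and Atp5g1, which gave the largest difference between Foxo1KO/Foxo1AAA and Foxo1KO. Each line gives the 250 bases before an annotated start, 5′ to 3′ on the gene's strand, from RefSeq on GRCm38.p6, and 74 of the 90 genes matched a window. The Atp5g1 gene is annotated at chr11:96072793-96075694, so part of its window lies inside the gene. Capitals mark a match on either strand to the NRF1 motif (GCGCA, any 1 base, GCGC), the GABP motif CCGGAAGT, the YY1 motif GCCATCTT or the Foxo motif GTAAACA; a site that matches on both strands was counted once.
Cox5a, chr9:57520982-57521231, plus strand: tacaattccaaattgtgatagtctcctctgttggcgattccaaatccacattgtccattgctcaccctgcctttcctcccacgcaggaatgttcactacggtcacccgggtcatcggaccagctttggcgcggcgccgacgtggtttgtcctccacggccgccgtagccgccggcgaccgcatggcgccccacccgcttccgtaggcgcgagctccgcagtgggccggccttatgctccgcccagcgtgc
Cox7a2, chr9:79759854-79760103, minus strand: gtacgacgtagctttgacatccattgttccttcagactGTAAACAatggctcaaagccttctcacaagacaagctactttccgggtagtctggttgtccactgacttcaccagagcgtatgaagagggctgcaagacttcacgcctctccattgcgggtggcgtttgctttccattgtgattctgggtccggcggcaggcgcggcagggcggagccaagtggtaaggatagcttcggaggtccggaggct
Ndufaf4, chr4:24897833-24898082, plus strand: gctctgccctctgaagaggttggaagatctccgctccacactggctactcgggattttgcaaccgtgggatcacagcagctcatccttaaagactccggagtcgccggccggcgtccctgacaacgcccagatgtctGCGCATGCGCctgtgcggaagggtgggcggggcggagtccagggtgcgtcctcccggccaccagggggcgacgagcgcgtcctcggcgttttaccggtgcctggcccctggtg
Atp5g1, chr11:96075632-96075881, minus strand: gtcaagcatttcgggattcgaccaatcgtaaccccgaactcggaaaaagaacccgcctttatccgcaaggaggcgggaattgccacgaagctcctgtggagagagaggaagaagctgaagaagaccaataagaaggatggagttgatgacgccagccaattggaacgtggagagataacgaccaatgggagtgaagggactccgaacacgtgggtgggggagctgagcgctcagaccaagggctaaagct
The windows of Cox5a and Atp5g1 held none of the 4 motifs. The NRF1 motif was found in 12 of 74 windows of oxidative phosphorylation genes (16.2%) and in 7% of the windows of 14453 array genes. The Foxo motif was found in 2, Cox7a2 and Ndufaf1 (2.7%), against 3.04% of all windows. The GABP motif was found in 3 (4.05%, against 4.95%) and the YY1 motif in 1 (1.35%, against 2.05%). Of the 6 genes called in Foxo1KO, Ndufaf4 held the NRF1 motif and Cox7a2 the Foxo motif. A match is a run of letters, not a measured binding site.

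The share of called genes in Foxo1KO differed widely among other lists measured in the same cells. The shares over all genes were 11.2% higher and 10.7% lower. All 33 tested cell cycle genes rose in Foxo1KO, by a median of 1.52, and 10 of 15 glycolysis genes rose, by a median of 0.41 over the 15. The glycolytic enzymes Tpi1 (0.93), Pfkp (0.83) and Aldoa (0.61) rose most, and no glycolysis gene fell. None of 12 genes of the tricarboxylic acid cycle, which feeds NADH and succinate to the chain, was called (limma; 2 at an unadjusted p under 0.05; median -0.06). Of 76 mitochondrial ribosome genes, 2 rose (Mrpl18 by 0.40 and Mrpl40 by 0.30) and 5 fell (Mrps6 by 0.53, Mrps18b by 0.44 and Mrpl24 by 0.35 the most), with a median of -0.02. These lists were chosen with earlier results of these data known, and the differences between lists were not tested. Without 1 of the 4 arrays the cell cycle list kept 31 to 33 calls and the glycolysis list 6 to 10, with 6 left without Foxo1KO replicate 2 and 6 without WT replicate 2. The mitochondrial ribosome list then gave 0 to 2 higher and 1 to 3 lower.

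Of 18 regulators of mitochondrial biogenesis, 6 fell in Foxo1KO and none was called higher, against 10.7% of all genes lower. The other 12 were not called, and 7 of the 18 differences were above 0. The called genes were Myc (-0.64), Pprc1 (-0.63) and Ppargc1b (-0.49), both PGC-1 family coactivators, the mitochondrial DNA helicase Twnk (-0.45), the mitochondrial RNA polymerase Polrmt (-0.42) and the mitochondrial DNA polymerase Polg (-0.39). Electron carriers split, with 3 of 16 higher and 3 lower. Cytochrome c, Cycs, rose by 0.33, the flavoprotein subunit Etfb by 0.38 and the ubiquinone synthesis gene Coq7 by 0.47, while the ubiquinone synthesis genes Pdss2 (-0.65), Coq2 (-0.51) and Coq5 (-0.37) fell. Of 38 assembly factors outside the naming rule, the copper chaperone Cox17 rose by 0.54, and Tmem186 (-0.46), Lrpprc (-0.44), Sco2 (-0.43) and Tmem126b (-0.39) fell. Slc25a4, which exchanges ATP for ADP across the inner membrane, rose by 0.47, the 1 call among 6 carriers. The calls of Myc, Pprc1, Ppargc1b, Pdss2 and Cox17 held without each of the 4 arrays in turn, and those of the other named genes of these lists were lost without at least 1. With probe sets that can match several transcripts left out, Cox17 differed by 0.04 and was not called (adjusted p = 0.83). Markers of myeloid and dendritic cells also rose in Foxo1KO (6 of 11 tested, median 0.63), against 11.2% of all genes higher. Of 5 tested CD8 T and NK cell markers 2 rose and 0 fell (median 0.21), and of 6 B cell markers 1 rose and 1 fell. The mean of 6 CD8 T and NK cell markers was 6.78 and 6.71 in Foxo1KO and 6.06 and 6.09 in WT. The part of other cells in these differences was not tested.

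**Figure D4:**
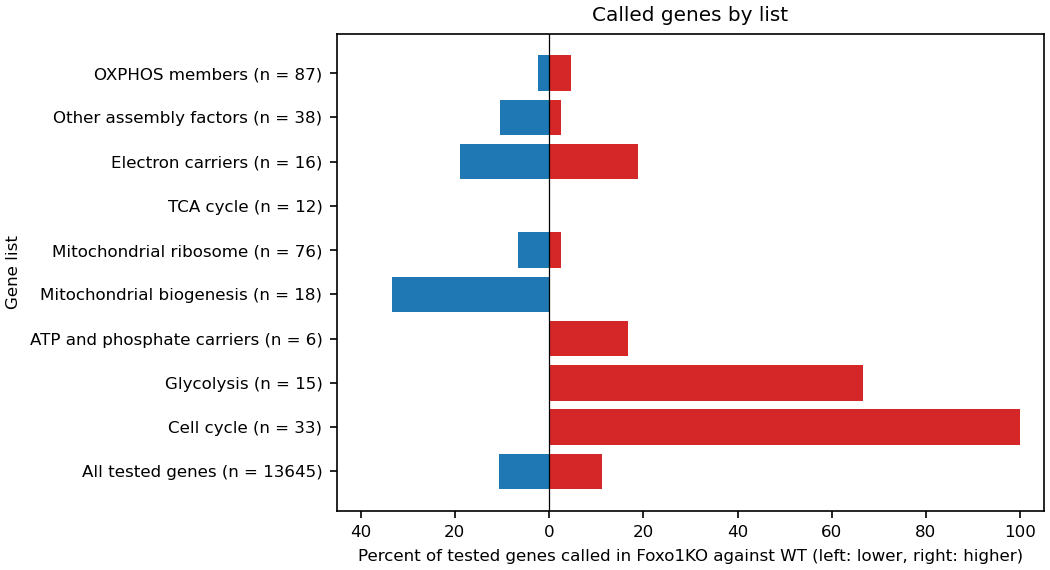
Bars give the percentage of each list's tested genes called between Foxo1KO and WT, lower to the left and higher to the right, with the number tested in brackets. The bars of the oxidative phosphorylation genes (labelled OXPHOS members) are shorter than those of all tested genes, and those of glycolysis (66.7%) and the cell cycle (100%) extend furthest to the right.

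Adding the active form to the knockout was compared next. Between Foxo1KO/Foxo1AAA and Foxo1KO, 20 of the 87 genes rose and 3 fell. Among all genes 19.6% were called higher, 20.2% lower and 39.8% in either direction. On the brightest probe sets the rises lay in complex I (6 of 35), its assembly factors (5 of 8), ATP synthase (5 of 17), complex III (3 of 8) and complex II (1 of 4). Complex IV had none, and 2 of the 3 falls. The brightest probe set of Cox5b differed by 0.05 and another by 0.41 (limma on single probe sets, adjusted p = 0.029). Its others differed by -0.17, 0.15 and -0.06. Differences of very bright probe sets can be understated, and the part of this here was not tested. The median difference was 0.10 for the 87 genes and -0.02 for all genes. With the lowest 50% of genes left out, the median of all genes was 0.08, with 24.9% called higher and 12.7% lower. The shares over all genes thus turned with the filter on dim genes. Of the 792 tested genes at least as bright as the median of the 87, 11% were called higher and 11.2% lower (median -0.01). When each array was centred on its own median, the median of all genes shifted to -0.19, with 12.4% called higher and 33.7% lower. The split of the 87 then became 7 higher and 11 lower, while the genes' median stayed 0.11 above that of all genes. The split of higher and lower calls thus turned with the scaling. Without either Foxo1KO array fewer of the 87 genes were called higher, and their share then lay below that of all genes in the same fit.

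The largest rise was that of Atp5g1, which measured 11.19 on the Foxo1KO/Foxo1AAA array against 10.42 and 10.47 in Foxo1KO, a difference of 0.75 (SE 0.11, adjusted p = 0.0016). Uqcr11, the smallest subunit of complex III, measured 11.16 on the Foxo1KO/Foxo1AAA array against 10.44 and 10.41, a difference of 0.73 (SE 0.12, adjusted p = 0.0022). Both single values lay well outside the Foxo1KO pair. The other rises lay between 0.34 and 0.52 apart from 3. Of these, Ndufs7, a core complex I subunit, rose by 0.58, the accessory subunit Ndufb2 by 0.58 and Sdhc by 0.56. With all probe sets of a gene averaged, the difference of Atp5g1 was 0.46, that of Ndufb2 0.31 and that of Sdhc 0.26, and the Sdhc call was lost (adjusted p = 0.057). The other tested probe set of Sdhc differed by -0.03. The assembly factors among the rises were Ndufaf2 (0.51), Ndufaf7 (0.49), Ndufaf5 (0.48), Ndufaf6 (0.46) and Ndufaf4, and those of ATP synthase were Atp5g1, its c-ring partner Atp5g2 (0.38), the stalk subunits Atp5o (0.52) and Atp5j (0.44), and Atp5e (0.38), a small subunit of the catalytic head. Cox8c measured 8.35 on the Foxo1KO/Foxo1AAA array against 9.18 and 8.91 in Foxo1KO and fell by 0.70 (adjusted p = 0.0074). Ndufa4l2 fell by 0.57 (6.81, against 7.30 and 7.45) and Cox8b by 0.53 (5.62, against 6.18 and 6.11). The Cox8b call was lost without Foxo1KO replicate 1 (adjusted p = 0.062).

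Of the 6 genes called in Foxo1KO, Ndufaf4 was the 1 called in the opposite direction here. It measured 9.87 on the Foxo1KO/Foxo1AAA array against 9.41 and 9.59 in Foxo1KO, a rise of 0.37 (adjusted p = 0.045). The call was lost with centred arrays (0.19, adjusted p = 0.21) and without Foxo1KO replicate 1 (0.28, adjusted p = 0.16). Cox5a, Ndufaf3, Cox7a2 and Sdhb measured 13.17, 8.86, 12.84 and 11.86 on that array, each below both Foxo1KO arrays and above both WT arrays. Their differences from Foxo1KO of -0.23, -0.20, -0.16 and -0.12 were not called. Cox7c measured 7.95, below both Foxo1KO arrays, and its difference of -0.30 was called only with centred arrays (-0.47, adjusted p = 0.036) or without Foxo1KO replicate 1 (-0.46, adjusted p = 0.045). Both comparisons use the Foxo1KO arrays, so opposite signs between them carry no separate weight.

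The same genes were measured with the active form in mice with no knockout named. Between Foxo1AAA and WT, 13 of the 87 genes rose and 4 fell. Among all genes 13.4% were called higher, 14.1% lower and 27.5% in either direction. The median was 0.11, against -0.02 for all genes. With the lowest 50% of genes left out, all genes had a median of 0.05, with 16.5% called higher and 8.09% lower. Of the 792 tested genes at least as bright as the median of the 87, 6.19% were called higher and 4.92% lower (median 0.01). After centring, the split of the 87 was 5 higher and 10 lower, against 8.5% and 27.9% of all genes. Sdhc measured 9.76 on the Foxo1AAA array against 9.17 and 8.98 in WT, a rise of 0.69 (SE 0.13, adjusted p = 0.0058). The assembly factors Ndufaf7 (0.60), Ndufaf2 (0.60) and Ndufaf5 (0.59) followed, and then Uqcr11 (0.53). The falls were those of Ndufa4l2 (-0.68), Cox7c (-0.62), Cox8c (-0.62) and Cox8b (-0.49). Cox7c measured 8.02 on the Foxo1AAA array against 8.60 and 8.69 in WT. Without either WT array fewer of the 87 genes were called higher, and their share then lay below that of all genes in the same fit. Without WT replicate 2 fewer were called lower too, and the calls of Uqcr11, Cox8c and Cox8b were lost. With all probe sets of a gene averaged the difference of Sdhc was 0.33. Its other tested probe set, with a mean of 9.09 against 9.23, differed by -0.03.

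These 2 comparisons use different arrays on both sides, and 13 genes were called in the same direction in both. Called higher in both were 10 genes, which are 10 of the 20 called in the knockout and 10 of the 13 called without it: Atp5g1, Atp5o, Ndufa5, Ndufaf2, Ndufaf5, Ndufaf7, Ndufb2, Ndufs5, Sdhc and Uqcr11. Called lower in both were Cox8b, Cox8c and Ndufa4l2. The share of all genes called in both was not counted, so this overlap is not shown to be particular to these genes. Across the 87 genes the differences correlated at Pearson 0.858 and Spearman 0.825, against 0.721 and 0.697 over all 13645 genes; genes of 1 array are not independent points. Of the 87 genes 71 had the same sign (81.6%, against 76.9% of all genes). Uqcrc1 (0.38 with the knockout, -0.06 without) and Ndufaf4 (0.37 and -0.01) lay furthest above the line of equal differences among the genes named here.

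**Figure D5:**
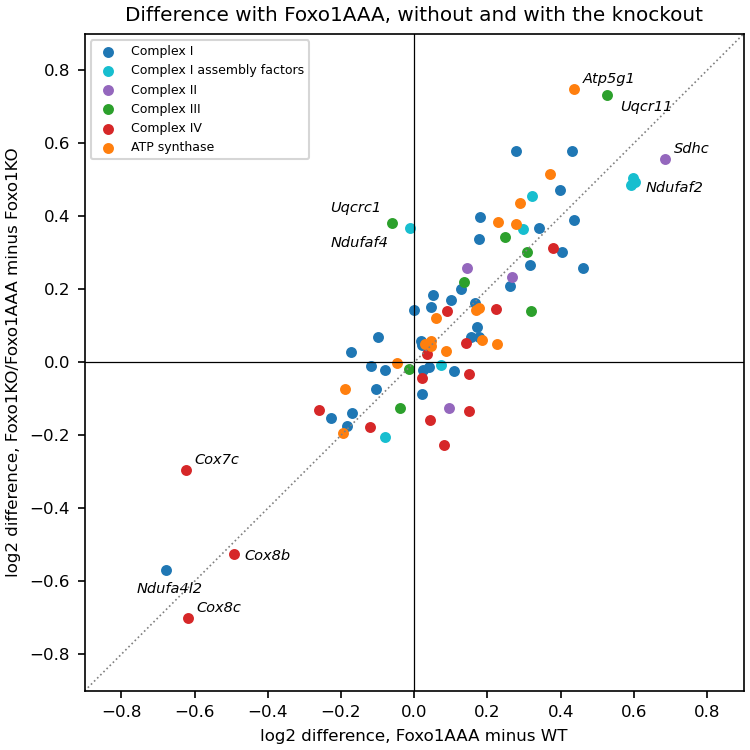
Each point is 1 of the 87 genes, with the log2 difference between Foxo1AAA and WT on the x axis and that between Foxo1KO/Foxo1AAA and Foxo1KO on the y axis, coloured by complex; the dotted line marks equal differences. Most points follow the dotted line, with Atp5g1, Uqcr11 and Sdhc at the upper right and Cox8c, Ndufa4l2, Cox8b and Cox7c at the lower left.

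Other mitochondrial lists gave mixed counts in these comparisons. The shares over all genes were 19.6% higher and 20.2% lower between Foxo1KO/Foxo1AAA and Foxo1KO. Between Foxo1AAA and WT they were 13.4% and 14.1%. Of 76 mitochondrial ribosome genes, 34 rose and 3 fell between Foxo1KO/Foxo1AAA and Foxo1KO (median 0.30), and 20 rose and 3 fell between Foxo1AAA and WT (median 0.26). Of the 38 other assembly factors, 13 rose and 1 fell in the first comparison and 6 rose and 1 fell in the second. In the tricarboxylic acid cycle 3 of 12 rose in the first and 2 in the second, and among 16 electron carriers 5 and 3 rose, with none lower. Of 18 biogenesis regulators 4 rose in the first, while 1 rose and 1 fell in the second (median 0.01). Of 6 ATP and phosphate carriers 1 fell in the first and none was called in the second (limma; 0 at an unadjusted p under 0.05). The differences between lists were not tested. With centred arrays the ribosome list split 20 higher and 5 lower in the first comparison and 13 and 6 in the second. The assembly factors then split 6 and 5, and 2 and 2. Of all genes, centring called 12.4% higher and 33.7% lower in the first and 8.5% and 27.9% in the second. Without WT replicate 2 the second comparison gave 12 higher ribosome genes and 2 higher assembly factors, and without Foxo1KO replicate 1 the first gave 22 and 8. Markers of other cells moved in the same comparisons. Of 11 tested myeloid and dendritic cell markers, 10 rose between Foxo1KO/Foxo1AAA and Foxo1KO (median 1.98) and 11 between Foxo1AAA and WT (median 3.11). The mean of 6 B cell markers was 8.90 on the Foxo1KO/Foxo1AAA array and 9.11 on the Foxo1AAA array, against 8.29 and 7.75 in Foxo1KO and 7.79 and 8.04 in WT. Their part in the rises of mitochondrial genes was not tested. The X-linked subunit genes Ndufa1 and Ndufb11 differed by 0.05 and -0.18 between Foxo1KO/Foxo1AAA and Foxo1KO and by 0.02 and -0.18 between Foxo1AAA and WT, with no call.

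The knockout with the active form was also set against WT, to see what remained different. Of the 87 genes 19 rose and 4 fell, with a median of 0.16 against -0.02 for all genes. Among all genes 17% were called higher, 13.7% lower and 30.7% in either direction. With the lowest 50% of genes left out, all genes had a median of 0.06, with 21.6% called higher and 9.79% lower. Of the 792 tested genes at least as bright as the median of the 87, 9.22% were called higher and 7.45% lower (median 0.004). After centring, the split of the 87 was 5 higher and 10 lower, against 10.4% and 33.5% of all genes. Uqcr11 (0.73), Ndufs5 (0.61), Ndufaf2 (0.61), Ndufaf5 (0.55) and Atp5o (0.54) rose most. After centring, Ndufaf5 differed by 0.35 and Atp5o by 0.34. Cox7c (-0.69), Cox8c (-0.66), Cox8b (-0.46) and Ndufa4l2 (-0.41) fell. Without WT replicate 2 fewer of the 87 genes were called in either direction, and the share called higher lay below that of all genes in the same fit. The calls of Cox8b and Ndufa4l2 were then lost. The Ndufa4l2 call was also lost without either Foxo1KO array (adjusted p = 0.054). Of the 4 genes raised in Foxo1KO, none was called against WT here, and Cox7c, lowered in Foxo1KO, was lower here too.

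With the active form present on both sides, the knockout made no called difference. Between Foxo1KO/Foxo1AAA and Foxo1AAA, limma called 0 of the 87 genes, and 0 had an unadjusted p under 0.05, against 1364 of all 13645 genes. After adjustment limma called 0.066% of all genes higher, 0.00733% lower and 0.0733% in either direction. The differences ran from -0.23 to 0.27, with a median of 0.07, and 77 of 87 intervals lay within 0.5 log2 units of 0 (median SE 0.13). The interaction, which is the knockout difference with the active form minus that without it, also gave 0 calls, with 2.81% of all genes called higher, 3.14% lower and 5.94% in either direction. At an unadjusted p under 0.05 it gave 1, against 2628 of all genes: Uqcrc1 (0.44, 95% interval 0.05 to 0.83, adjusted p = 0.20), and for Ndufaf4 it was 0.38 (-0.02 to 0.78). Only 50 of the 87 interaction intervals lay within 0.5 log2 units of 0, so differences of that size could not be resolved for the other 37. In the same test 24 of 33 cell cycle genes had a smaller knockout difference with the active form (median -1.19). Between Foxo1AAA and WT, 31 of the 33 were called higher (median 1.28), against 13.4% of all genes. Between Foxo1KO/Foxo1AAA and Foxo1KO, 11 of them rose and 3 fell (median 0.24), against 19.6% and 20.2% of all genes.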

How the data were processed

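Transcript levels of 6 Treg cell samples were deposited by the authors as log2 values for 45101 probe sets, made with RMA per the submitters' processing notes (background correction, quantile normalization, which sets all arrays to 1 distribution, and probe summary). R 2.15 and limma 3.12.1 are named there too. Of the probe sets, 34958 were listed with 1 gene; the rest, including 10 shared by an oxidative phosphorylation gene and another gene, were left out. Symbols were updated through RefSeq tables. The brightest probe set stood for each gene, and genes in the lowest 25% by mean were not tested. Limma 3.58.1 in R 4.3.3 fitted 1 coefficient per group, checked on simulated data. The residual spread (2 degrees of freedom; prior 6.59, SD 0.10) came from the Foxo1KO and WT pairs, and the single arrays were assumed to vary alike. Tests were two-sided, Benjamini-Hochberg adjusted over 13645 genes. Named genes were catalytic core and isoform genes, the largest called differences (10 in Foxo1KO, 5 in other comparisons, 3 per context list) and others mentioned after their values were seen. The genes and lists were chosen with earlier results of these data known. Replicate numbers were not taken as pairs: no label says they are, and deviations correlated at -0.096 (though Eif2s3y differs between replicates 1 and 2 alike in both groups). The number of arrays limits precision. Alternatives changed the filter, probe set choice, variance prior, scaling, symbols, replicate block and arrays used.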

Additional observations from a re-analysis of the deposited data

How the results depend on the processing

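Under the alternatives run, no called value changed sign. Between Foxo1KO and WT the counts (4 higher, 2 lower) were 8 and 5 with an intensity trend in the variance prior and 0 and 1 with the replicate number as a block. The lower count was 1 with no filter and 0 with every probe set tested, and leaving out 1 array gave 0 to 1 higher and 0 to 2 lower; the fit then has 1 residual degree of freedom. For Foxo1KO/Foxo1AAA against Foxo1KO (20, 3), Foxo1AAA against WT (13, 4) and Foxo1KO/Foxo1AAA against WT (19, 4), centring each array gave 7 and 11, 5 and 10, and 5 and 10, with medians of -0.08, -0.06 and -0.04. With centring, all genes gave 12.4% higher and 33.7% lower, 8.5% and 27.9%, and 10.4% and 33.5%. The replicate block gave 12, 6 and 11 higher, and 2 lower in the last. With the block, all genes gave 16.2%, 10.7% and 13.7% higher and 16.6%, 10.5% and 9.69% lower. Leaving out the lowest 50% of genes gave 1, 2 and 2 lower. All genes then gave 24.9%, 16.5% and 21.6% higher and 12.7%, 8.09% and 9.79% lower. The trend gave 29 higher in the last. Leaving out 1 array gave 10 to 19, 5 to 9 and 7 to 18 higher, and 3, 2 to 4 and 2 to 4 lower. The cause of these moves was not tested. Counts for Foxo1KO/Foxo1AAA against Foxo1AAA and for the interaction were 0 under all alternatives run. For named oxidative phosphorylation and context genes, 1099 values kept their side of the threshold, 119 lost a call and 12 gained one, among them Uqcrfs1 (adjusted p 0.013) and Uqcrc1 (0.033) with the trend. Leaving out probe sets that can match several transcripts, an alternative chosen after seeing the data, gave 4 higher and 3 lower in Foxo1KO. The replicate numbers were not taken as pairs, so the block is an alternative. Dim probe sets and 2 groups of 1 array limit the rest.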

Other observations

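Probe sets of a gene did not always move together. Of 49 oxidative phosphorylation genes with several tested probe sets, 11 had differences of both signs between Foxo1KO and WT, and the median range between a gene's probe sets was 0.08. Tested one by one, 170 probe sets gave 4 higher and 6 lower calls in Foxo1KO. The lower ones included dim probe sets of Ndufa12 (-0.47), Ndufab1 (-0.65), Ndufs4 (-0.48) and Sdha (-0.38), whose brightest probe sets differed by -0.09, -0.01, 0.03 and -0.25. Between Foxo1KO/Foxo1AAA and Foxo1KO, Ndufc2 differed by 0.20 on its brightest probe set and by 0.69 on another (adjusted p = 0.0030). Atp5j2 had probe sets called in opposite directions there (0.40 and -0.41). These were chosen after their values were seen.

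Between Foxo1KO and WT and between Foxo1KO/Foxo1AAA and Foxo1AAA, which share no array, 59 of the 87 genes had the same sign (67.8%, against 60.9% of all genes), and the differences correlated at Pearson 0.37 and Spearman 0.39 (0.35 and 0.32 over all genes).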
